A study of Mus musculus with 6 samples.

Results

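The nuclear genes of oxidative phosphorylation were examined in RNA sequencing of mouse frontal cortex. The members were the protein-coding genes whose symbols begin with Nduf plus a subunit letter and number, Uqcr, Cox4 to Cox8, or Atp5. This rule used names and not measured values, and it found 80 of the 33000 genes in the count table, or of 21958 protein-coding genes. They comprised 37 genes named for complex I, 8 for complex III, 18 for complex IV and 17 for ATP synthase. The rule leaves out a few subunits with other names, such as Ndufab1 and Cyc1. It takes in Cox7a2l, a factor that joins complexes III and IV, as well as Atp5s and Atp5sl, which are not counted among the subunits of the enzyme. Ndufa4 is a subunit of complex IV that keeps its old complex I name, and it was counted here by that name.

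TruSeq libraries from 2 genotypes were compared, with 3 mice homozygous for GFAP-IL6 and 3 wild-type (WT) controls, all C57BL/6 and 3 months old. GFAP-IL6 mice carry a transgene that drives the cytokine IL6 from the promoter of Gfap, a gene of astrocytes, so that astrocytes are the cells that release it. Each library came from a separate mouse, and the frontal cortex was taken as a piece of tissue with all of its cell types.

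Complexes I, III and IV of the inner mitochondrial membrane pass electrons from NADH to oxygen and pump protons out of the matrix, and ATP synthase lets the protons back in to make ATP. Each of these complexes is built from many small proteins made from nuclear genes, joined in complexes I, III and IV and in ATP synthase by a few proteins encoded in the mitochondrial genome itself. Brain tissue depends heavily on this pathway, and neurons are its main users there.

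Total counts lay between 7559524 and 16877001 per library, and each GFAP-IL6 library was shallower than each WT library. Gfap reached 76.5 to 123 CPM (counts scaled to a library of 1 M, for mega) in WT and 518 to 870 CPM in GFAP-IL6, with 0 to 2 counts of Il6 per WT library and 10 to 24 per GFAP-IL6 library, so the libraries matched their labels. Neuron markers summed to between 13890 and 15800 CPM over 12 genes in the 6 libraries, so the defining markers of this tissue were present in each. WT replicate 2 stood apart in a marker list of the neighbouring striatum. Its 10 striatal genes summed to 503 CPM, against 260 to 333 CPM in the other 5 libraries, and WT replicate 3 held 598 CPM of 3 choroid plexus genes, against at most 58.0 CPM elsewhere. Microglial markers were called higher in GFAP-IL6 for 7 of 8 genes and endothelial markers for 4 of 8. In bulk tissue, fewer cells of a type and less RNA per cell cannot be told apart.

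Of the 80 members, 77 had enough counts to pass the low-count filter of edgeR, which left 15341 genes for testing. The log2 fold change (GFAP-IL6 against WT) was below 0 in 72 of these 77, while 50.6% of all genes tested were below 0. The median over the 77 was -0.28, which is a level 17.5% below WT, and the median over all genes tested was -0.004. The middle of the members' range, from the lower to the upper quartile, ran from -0.38 to -0.21. The shift was thus small, wide and mostly in one direction, and it came with very few calls gene by gene.

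At an adjusted p under 0.05 (edgeR quasi-likelihood F-test with Benjamini-Hochberg adjustment over all 15341 genes), 1 of the 77 was called lower and 0 higher. The same rule called 0.209% of all genes lower and 2.65% higher. At an unadjusted p under 0.05, 53 members were lower and 1 was higher, against 9.37% and 11.1% of all genes. The 3 GFAP-IL6 values lay below all 3 WT values in 53 members, against 12.7% of all genes, and above them in 1 member, against 13.8%. Members share regulation and libraries, and they are not replicates of one another. They were also more abundant than most genes tested, and these shares were not matched for level.

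Markers of neurons lay partly in the same direction. Of the 12 genes, 9 had a log2 fold change below 0 and 3 above (Camk2a 0.09, Rbfox3 0.05 and Syn1 0.10). The median was -0.08. At an unadjusted p under 0.05 (edgeR), 5 were lower and 0 higher: the synaptic gene Snap25 (-0.20), Stmn2 (-0.25), Thy1 (-0.21) and the interneuron genes Gad1 (-0.22) and Gad2 (-0.17), of which none passed the adjusted threshold. Their summed level was 14330 to 15800 CPM in WT and 13890 to 15180 CPM in GFAP-IL6, so the sums overlapped, and WT replicate 2 was the lowest of the WT libraries. Their median without WT replicate 2 was -0.14, with 11 of 12 below 0 and 3 lower at an unadjusted p under 0.05. With the length and GC offset described further on, their median was -0.08, with 11 of 12 below 0. Snap25 then stood at -0.06, Stmn2 at -0.11, Thy1 at -0.23, Gad1 at -0.24 and Gad2 at -0.15. The part of neuronal RNA in the members' values was not tested.

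**Figure D1:**
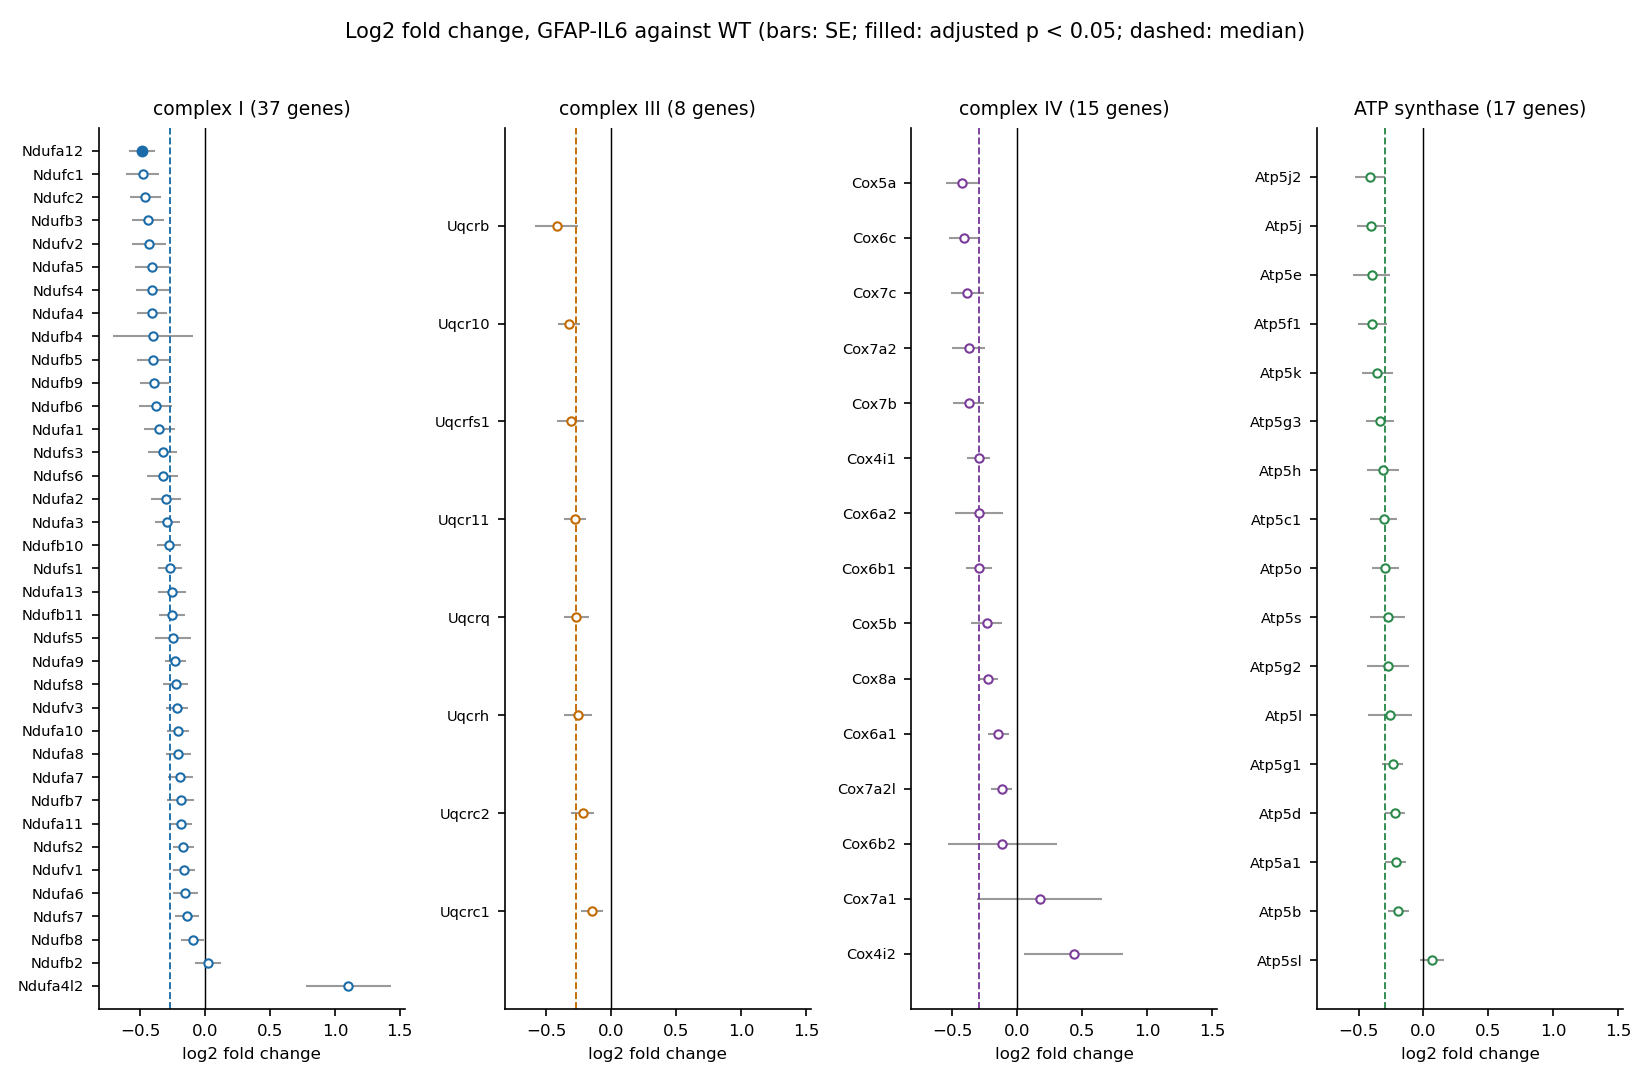
The log2 fold change of each of the 77 members that passed the filter is plotted by complex with its standard error, and the dashed line marks the median of each complex. Medians lie between -0.27 and -0.29, Ndufa12 is the only filled point (adjusted p under 0.05), and Ndufa4l2 stands alone at 1.10.

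The complexes had nearly the same median. It was -0.27 over the 37 genes of complex I, -0.27 over the 8 of complex III, -0.29 over the 15 tested of complex IV and -0.29 over the 17 of ATP synthase. The count of members below 0 was 35, 8, 13 and 16 in the same order. Groups did not overlap, with GFAP-IL6 lower, in 26, 6, 9 and 12 members. No complex stood out by these values, and differences between complexes were not tested.

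Complex I takes electrons from NADH. Its subunits form the N module, which binds NADH, the Q module, which hands electrons to ubiquinone, and the membrane arm, which pumps protons. All 8 tested N module genes were below 0 with a median of -0.31, and an unadjusted p under 0.05 was reached by 7. The 7 Q module genes were also all below 0, but with a median of -0.19 and 3 such genes. The 20 genes of the membrane arm had a median of -0.27, with 19 below 0 and 14 such genes. Without WT replicate 2 the medians were close, at -0.19 for the N module, -0.17 for the Q module and -0.18 for the membrane arm. With the length and GC offset described further on, they were -0.26 for the membrane arm, -0.25 for the N module and -0.16 for the Q module. The order of the N module and the membrane arm thus depended on the fit. The Q module had the smallest shift in each of these fits, and differences between the modules were not tested.

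Ndufa12, an accessory subunit of the N module, was the member called. The gene lies on the plus strand of chromosome 10 at chr10:94198720-94221443 (GRCm38). It measured 32.1, 38.1 and 32.7 CPM in WT replicates 1, 2 and 3, and 25.8, 24.8 and 23.0 CPM in GFAP-IL6 replicates 1, 2 and 3. The groups did not overlap, and WT replicate 2 was the highest of the 6. Ndufa12 fell by 0.48 ± 0.10 on the log2 scale (SE, n = 3 per group; edgeR adjusted p = 0.0208), or by 28.5%. After thinning of all libraries to the depth of the smallest, the value was -0.47 (edgeR adjusted p = 0.0257). The call held when any WT library was left out. It ended when any GFAP-IL6 library was left out, with edgeR adjusted p-values of 0.0609 without replicate 1, 0.0812 without replicate 2 and 0.154 without replicate 3, and log2 fold changes of -0.52, -0.49 and -0.43.

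The next members of complex I by p were Ndufc2 and Ndufc1, both small subunits of the membrane arm. Ndufc2 measured 63.1, 88.4 and 65.0 CPM in WT and 53.25, 52.6 and 51.8 CPM in GFAP-IL6, which gave a log2 fold change of -0.46 ± 0.12 (SE; edgeR adjusted p = 0.0618). Ndufc1 measured 32.8, 47.4 and 35.5 CPM in WT and 28.0, 28.7 and 26.7 CPM in GFAP-IL6, which gave a log2 fold change of -0.48 ± 0.13 (SE; edgeR adjusted p = 0.0719). In both genes the groups did not overlap, and WT replicate 2 lay far above the other WT libraries.

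The most abundant genes counted with complex I were Ndufa4, at a mean of 1010 TPM (a level per length, scaled to a fixed total) over the 6 libraries, and Ndufb9, at 598 TPM. Ndufa4 measured 176, 242 and 182 CPM in WT and 154, 160.1 and 139 CPM in GFAP-IL6, with a log2 fold change of -0.41 ± 0.12 (SE; edgeR adjusted p = 0.0879). Ndufb9, a subunit of the membrane arm, measured 133, 187 and 148 CPM in WT and 119.6, 123 and 115 CPM in GFAP-IL6, with -0.39 ± 0.11 (SE; edgeR adjusted p = 0.0919). Neither passed the test, and in neither did the groups overlap.

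Complex III passes electrons from ubiquinol to cytochrome c. Its member with the smallest p was Uqcr10, a small subunit, which measured 64.8, 73.8 and 63.85 CPM in WT and 52.8, 55.5 and 53.8 CPM in GFAP-IL6. The log2 fold change was -0.32 ± 0.08 (SE; edgeR adjusted p = 0.0651). The groups did not overlap, and WT replicate 2 was the highest library.

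Uqcr11, another small subunit, measured 44.25, 45.9 and 41.25 CPM in WT and 35.6, 34.9 and 37.8 CPM in GFAP-IL6, with a log2 fold change of -0.28 ± 0.09 (SE; edgeR adjusted p = 0.109). Uqcrfs1, the Rieske iron-sulphur protein that carries out the electron transfer, measured 91.7, 114 and 89.8 CPM in WT and 79.2, 85.8 and 73.5 CPM in GFAP-IL6, with -0.31 ± 0.11 (SE; edgeR adjusted p = 0.135). Uqcrh, the hinge protein and at 638 TPM the most abundant member of complex III, had a log2 fold change of -0.25 ± 0.11 (SE; edgeR adjusted p = 0.21). In each of these 3 genes the lowest WT library lay above the highest GFAP-IL6 library.

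Complex IV, cytochrome c oxidase, gives the electrons to oxygen. Cox6c measured 148, 205 and 163 CPM in WT and 126, 139 and 124 CPM in GFAP-IL6, which gave a log2 fold change of -0.41 ± 0.11 (SE; edgeR adjusted p = 0.0768). Cox5a measured 103, 151 and 115 CPM in WT and 95.6, 89.5 and 89.6 CPM in GFAP-IL6, which gave a log2 fold change of -0.43 ± 0.12 (SE; edgeR adjusted p = 0.0897). WT replicate 2 was again the highest library in both, and the groups did not overlap. Cox8a, the most abundant member at 1543 TPM, measured 304, 329 and 324 CPM in WT and 266, 283 and 271.5 CPM in GFAP-IL6. The log2 fold change came to -0.22 ± 0.08 (SE; edgeR adjusted p = 0.136), and here WT replicate 2 lay close to WT replicate 3.

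ATP synthase has a catalytic head (F1), a ring of c subunits that turns in the membrane and a peripheral stalk that holds the head still. The 5 genes of the head had a median log2 fold change of -0.22, and all 5 had an unadjusted p under 0.05. Atp5b, the catalytic beta subunit of the head and at 1447 TPM the most abundant member of ATP synthase, measured 1022, 1125 and 979 CPM in WT and 893, 966 and 874 CPM in GFAP-IL6, which gave a log2 fold change of -0.19 ± 0.08 (SE; edgeR adjusted p = 0.214). This was among the smallest shifts of the complex, and the groups were barely apart.

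The members of ATP synthase with the smallest p lie in the stalk and the membrane part. Atp5j, coupling factor 6 of the stalk, measured 123, 171 and 142 CPM in WT and 114, 109 and 107 CPM in GFAP-IL6, with a log2 fold change of -0.40 ± 0.11 (SE; edgeR adjusted p = 0.0745). Atp5j2, subunit f of the membrane part, measured 79.5, 111 and 85.6 CPM in WT and 68.8, 72.1 and 66.9 CPM in GFAP-IL6, with -0.41 ± 0.12 (SE; edgeR adjusted p = 0.0806). Atp5f1, subunit b of the stalk, had a log2 fold change of -0.39 ± 0.11 (SE; edgeR adjusted p = 0.0846). None passed the test, although the groups did not overlap in any of the 3.

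The c subunit of the ring is made from 3 genes whose mature proteins are the same. Atp5g3 was the highest at a mean of 730 TPM, with 45.6 TPM of Atp5g2 and 40.1 TPM of Atp5g1. The length used for TPM was 4912 bases for Atp5g1, against 731 for Atp5g2 and 724 for Atp5g3. By CPM, the WT libraries held 186 to 248.8 of Atp5g3, 70.63 to 77.24 of Atp5g1 and 11.5 to 14.0 of Atp5g2. The order of Atp5g1 and Atp5g2, and the size of their shares by TPM, thus depended on the length. Atp5g2 also shares 38.35% of its 50-base stretches with other genes, so its level is uncertain. The log2 fold changes of the 3 genes were -0.33 ± 0.11 for Atp5g3, -0.27 ± 0.16 for Atp5g2 and -0.24 ± 0.08 for Atp5g1 (SE). None passed the test, and their proportions hardly moved: relative to the TPM of Atp5g3, Atp5g1 stood at 5.40% ± 0.774 in the WT libraries and at 5.69% ± 0.0839 in the GFAP-IL6 libraries (SD, n = 3 per group).

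The promoters of some members hold motifs of regulators of this pathway. Factors known to drive them, nuclear respiratory factor 1 (NRF1), the ETS factor GABPA and YY1, bind short motifs near the start of many of these genes. Windows from 250 bases before to 50 bases after each start were taken from RefSeq (GRCm38.p6) and matched 66 of the 80 members. The letters CGCANGCG, the core of the NRF1 site, stood on either strand in 36.4% of these members, against 9.22% of all 27025 genes with a window and 18.2% of the tested genes. The ETS letters CCGGAAG stood in 21.2% of members, 9.93% of all genes and 18% of tested genes. The YY1 letters AAGATGGCG stood in 12.1%, 1.64% and 3.24%. At least 1 of these 3 motifs stood in 56.1% of members, 18.3% of all genes and 34.1% of tested genes, so many members held none of them, and the ETS share was near that of the tested genes. No test of these shares was made. The Sp1 letters GGGCGG, a common GC box, stood in 39.4% of members and in 67.0% of tested genes.

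The stretches below show such letters at the member that was called and at a further member of each complex. For each complex, this is the member with the smallest p whose match lies before its start in a run outside every annotated exon. Such a run had at least 60 bases, and at most its last 120 bases were searched. They read 5′ to 3′ on the strand of the gene, with the matched letters in capitals. Ndufa12 (chr10:94198905-94198934, plus strand) holds an NRF1 core in a stretch that runs from 130 to 101 bases before its RefSeq start, in the first exon of a longer GENCODE transcript, and only 30 bases are shown. Ndufa11 (chr17:56717686-56717761, plus strand), an accessory subunit of complex I, and Cox6a1 (chr5:115348982-115349101, minus strand) hold NRF1 cores. Uqcr11 (chr10:80406831-80406950, minus strand) and Atp5e (chr2:174464106-174464225, minus strand), the epsilon subunit of ATP synthase, hold ETS letters.
Ndufa12: ctccagctctgCGCCTGCGtagaacgacct
Ndufa11: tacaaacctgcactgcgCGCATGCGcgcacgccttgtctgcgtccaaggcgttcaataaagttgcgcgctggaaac
Uqcr11: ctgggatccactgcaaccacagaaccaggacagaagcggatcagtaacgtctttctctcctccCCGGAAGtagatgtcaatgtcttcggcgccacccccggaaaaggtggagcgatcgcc
Cox6a1: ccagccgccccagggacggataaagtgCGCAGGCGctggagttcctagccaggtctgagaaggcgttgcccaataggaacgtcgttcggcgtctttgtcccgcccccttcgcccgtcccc
Atp5e: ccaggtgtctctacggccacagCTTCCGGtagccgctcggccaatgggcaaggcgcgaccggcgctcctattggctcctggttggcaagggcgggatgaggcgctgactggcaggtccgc
A match describes letters in a window and is not a bound site.

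The regulators themselves did not pass the test. Of 13 listed regulators, 0 were called by edgeR at an adjusted p under 0.05, and the median log2 fold change was 0.01. At an unadjusted p under 0.05 (edgeR), 1 was lower and 4 were higher, against 9.37% and 11.1% of all genes. With the length and GC offset these 4 stood at 0.23 (Nrf1), 0.13 (Polrmt), 0.06 (Polg) and 0.15 (Pprc1), and the lower one, Tfam, at -0.17. Nrf1 had a log2 fold change of 0.30 ± 0.11, Gabpa 0.01 ± 0.09, Gabpb1 0.04 ± 0.14 and Yy1 -0.05 ± 0.08 (SE). Ppargc1a, the main coactivator of mitochondrial biogenesis, had -0.03 ± 0.08, Ppargc1b 0.44 ± 0.26, Pprc1 0.27 ± 0.12 and the receptor Esrra -0.07 ± 0.11 (SE). For factors of the mitochondrial genome, the values were -0.23 ± 0.09 for Tfam, -0.22 ± 0.17 for Tfb1m, -0.04 ± 0.16 for Tfb2m, 0.26 ± 0.10 for Polrmt and 0.22 ± 0.08 for Polg (SE). The regulators did not share the members' direction, with 6 of 13 below 0.

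Several subunits of complex IV have an isoform of restricted expression beside the common one. Cox4i1 measured 321, 393 and 335 CPM in WT and 282, 291 and 281 CPM in GFAP-IL6, which gave a log2 fold change of -0.30 ± 0.09 (SE; edgeR adjusted p = 0.0986). Its isoform Cox4i2 measured 0.61, 1.37 and 0.753 CPM in WT and 0.986, 1.45 and 1.45 CPM in GFAP-IL6, or 7 to 23 counts per library. The Cox4i2 groups overlapped, and the log2 fold change was 0.43 ± 0.38 (SE; edgeR adjusted p = 0.54).

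The common forms had values below 0, and the rare forms had no shared direction. Among the common forms, the log2 fold changes were -0.15 ± 0.08 for Cox6a1, -0.29 ± 0.10 for Cox6b1, -0.38 ± 0.12 for Cox7a2 and -0.37 ± 0.12 for Cox7b (SE). Among the forms known from heart, muscle or testis, they were -0.30 ± 0.19 for Cox6a2, -0.12 ± 0.42 for Cox6b2 and 0.17 ± 0.48 for Cox7a1 (SE). Cox7a2l, the factor that joins complexes III and IV, had -0.12 ± 0.08 (SE). None of these passed the test. The sign of Cox6b2 and Cox7a1 turned in fits that left out a library, and both had 27 counts or fewer in every library.

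The 3 members that did not pass the filter were all rare forms of complex IV. Cox8c, known from testis, had 0 counts in every library. For Cox8b, known from heart and muscle, the WT libraries held 4, 1 and 6 counts and the GFAP-IL6 libraries 1, 3 and 0. For Cox7b2, a testis form, they held 3, 7 and 6 counts and 5, 1 and 1 counts. No fold change is given for Cox8b and Cox8c, which were at or under 3 counts in every library of a group, and a count of 0 allows up to 3 counts.

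Ndufa4l2, a relative of Ndufa4 that is induced by low oxygen and is known from pericytes of the brain, was the only tested member whose groups did not overlap with GFAP-IL6 higher. The gene lies at chr10:127514967-127517154 (GRCm38, plus strand). It measured 1.31, 0.597 and 1.005 CPM in WT and 1.88, 2.11 and 2.12 CPM in GFAP-IL6, from 10 to 21 counts per library. The log2 fold change was 1.10 ± 0.33 (SE; edgeR adjusted p = 0.0999), so it did not pass the test. WT replicate 2 was the lowest library, and without it the log2 fold change was 0.83 (edgeR adjusted p = 0.226). Without WT replicate 1, the highest WT library, it was 1.34 and passed the test (edgeR adjusted p = 0.0451).

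As a share of the TPM of Ndufa4, Ndufa4l2 stood at 0.263% ± 0.128 in the WT libraries and at 0.695% ± 0.0801 in the GFAP-IL6 libraries (SD, n = 3 per group), and the groups did not overlap. Cox4i2, which is also known from pericytes, stood at 0.247% ± 0.081 of Cox4i1 in WT and 0.442% ± 0.0887 in GFAP-IL6. Markers of mural cells, the pericytes and smooth muscle cells of vessels, lay in the same direction. All 8 genes of a list chosen after these values were seen had a log2 fold change above 0, and edgeR called 2 of them (Rgs5, 0.42 ± 0.09, adjusted p = 0.0289; Notch3, 0.64 ± 0.15, adjusted p = 0.035). Their summed level was 216 to 241.5 CPM in WT and 284 to 322 CPM in GFAP-IL6, and that of the 8 endothelial markers was 127 to 149 CPM and 210.1 to 241.5 CPM. The part of vessel cells in the Ndufa4l2 values was not tested.

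**Figure D2:**
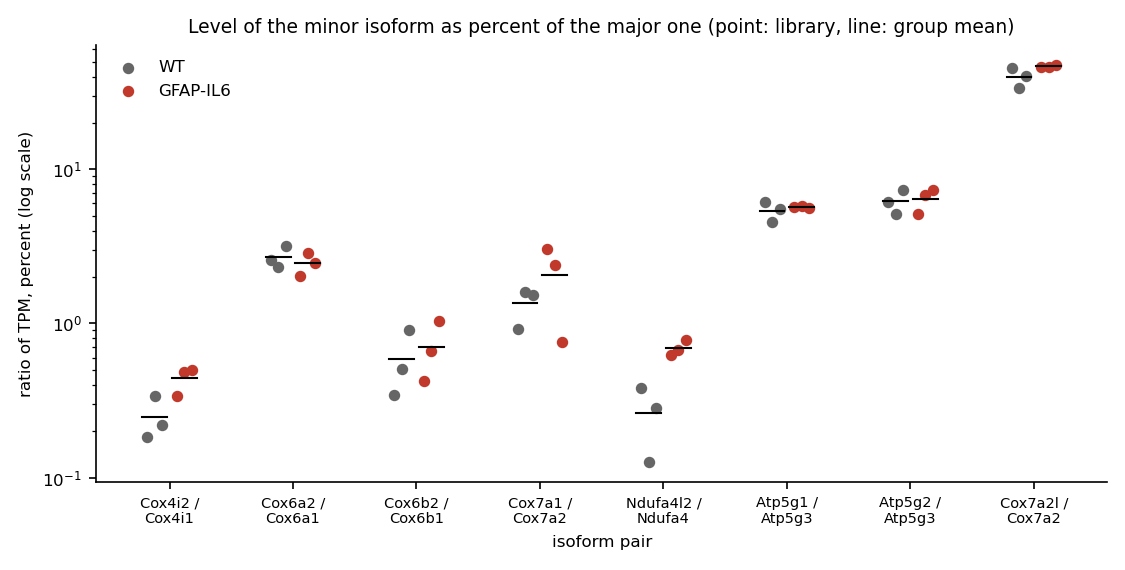
The level of one isoform is plotted as a percent of another on a log scale, from TPM, with a point for each library and a line at each group mean. Ndufa4l2 over Ndufa4 is higher in each of the 3 GFAP-IL6 libraries (0.626% to 0.783%) than in each WT library (0.126% to 0.38%), and the c subunit genes of ATP synthase keep their proportions.

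Of the other members above 0, Ndufb2 (0.02 ± 0.10) and Atp5sl (0.06 ± 0.09) stood close to no difference, with the remaining pair being Cox4i2 and Cox7a1 (all SE). These were named after their values were seen. Ndufb4 and Atp5l were measured at only 6.67 and 38.9 TPM, far below most members of their complexes. Ndufb4 held 9 to 51 counts per library and shares 18.3% of its 50-base stretches with other genes. Atp5l shares 9.99% of its stretches, so the levels of both genes are uncertain.

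Taking all 80 members as a share of the library gives the same picture without a filter. They took 0.790%, 0.956% and 0.794% of counts in WT replicates 1, 2 and 3, and 0.711%, 0.736% and 0.695% in GFAP-IL6 replicates 1, 2 and 3. The groups did not overlap, and the mean was 0.847% ± 0.0943 for WT and 0.714% ± 0.021 for GFAP-IL6 (SD, n = 3 per group), a ratio of 0.844. Without WT replicate 2 the ratio was 0.902. By TPM the members took 2.42% ± 0.226 for WT and 2.08% ± 0.0611 for GFAP-IL6 (SD, n = 3 per group). By counts, ATP synthase took the largest part, 0.329% in WT and 0.280% in GFAP-IL6, followed by complex I with 0.258% and 0.216%, complex IV with 0.175% and 0.146%, and complex III with 0.0841% and 0.0722% (group means).

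WT replicate 2 had a large part in the size of these differences. It was the highest of the 6 libraries in 64 of the 77 members, against 29.5% of all genes tested. The median member was 1.23 times as high in WT replicate 2 as in the mean of the other WT libraries, with a range of 0.516 to 2.01. The median deviation of the members, on the log2 scale, from the mean of all 6 libraries was 0.32 in WT replicate 2, 0.01 and 0.06 in WT replicates 1 and 3, and -0.15, -0.09 and -0.17 in GFAP-IL6 replicates 1, 2 and 3. The 2 remaining WT libraries thus still lay above all 3 GFAP-IL6 libraries.

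**Figure D3:**
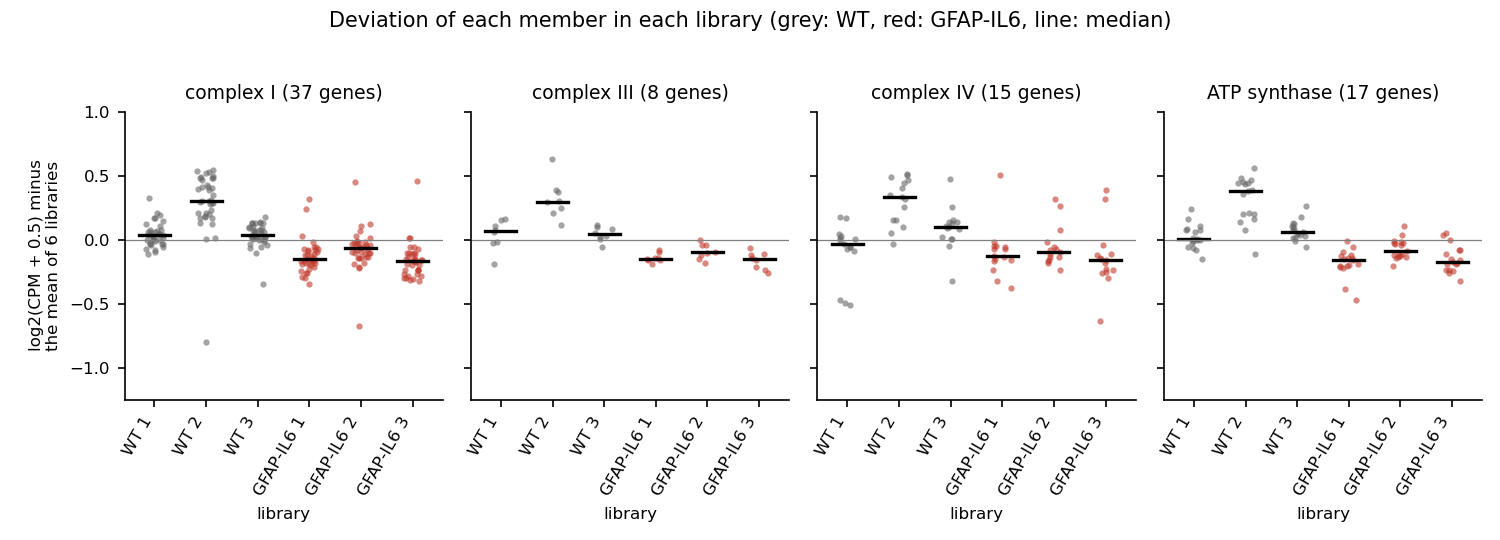
Each point is a member in a library, as log2(CPM + 0.5) minus its mean over the 6 libraries, with a line at the median of each complex. WT replicate 2 lies highest in all 4 panels (medians 0.29 to 0.38) and the 3 GFAP-IL6 libraries have medians below 0.

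With WT replicate 2 left out, the median log2 fold change of the members was -0.18, or 11.9% below WT, and 72 of the 77 were still below 0. It was -0.18 over complex I, -0.17 over complex III, -0.19 over complex IV and -0.19 over ATP synthase. In 68 of the 77 members the value was closer to 0 than with all libraries. At an unadjusted p under 0.05 (edgeR), 41 members were lower, against 5.96% of all genes, and 54 did not overlap between groups, against 15.5%. The calls were 2, both lower, against 0.316% of all genes called lower: Ndufa12 (-0.40, edgeR adjusted p = 0.0306) and Ndufc2 (-0.29, edgeR adjusted p = 0.0486). The direction was the same without this library, and the size of the median moved from -0.28 to -0.18.

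Other genes moved with WT replicate 2 as well. The median deviation of the 10 striatal markers there was 0.94, against -0.39 to 0.09 in the other libraries, with the sums given above. The 8 oligodendrocyte markers summed to 6494 CPM there, 3476 and 5908 CPM in the other WT libraries and 3557 to 5545 CPM in GFAP-IL6. The 89 ribosomal protein genes had a median deviation of 0.29 there. The part of tissue makeup in the members' values was not tested, other than by the fits without this library.

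**Figure D4:**
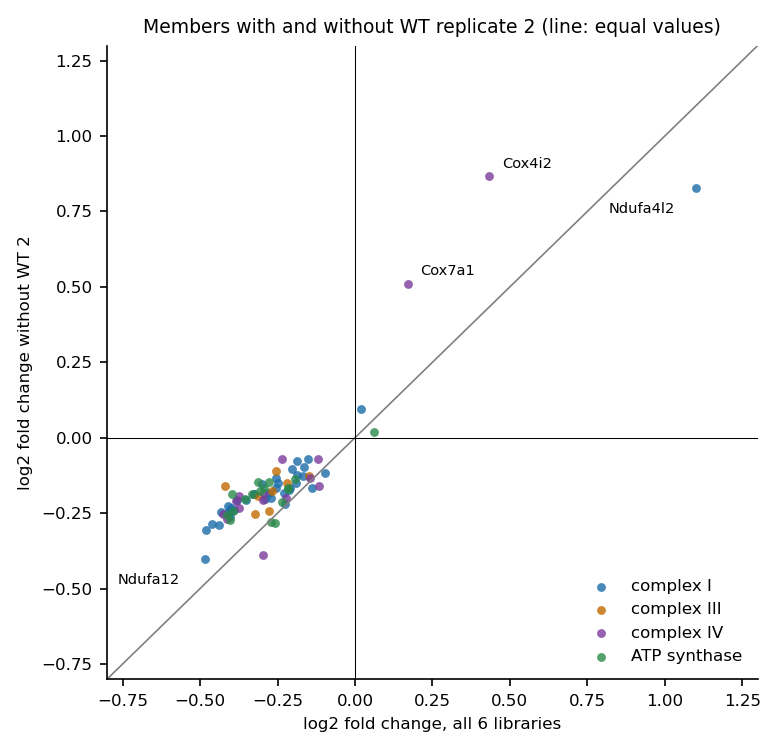
The log2 fold change of each of the 77 members with all 6 libraries (horizontal axis) is set against the value without WT replicate 2 (vertical axis), and the line marks equal values. Most members sit above the line and below 0 on both axes.

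The members are short genes, and short genes shifted as a class. Their median length was 875 bases, against 3134 over all genes tested, and 51 of the 77 fell in the shortest of 10 length bins of equal gene number (36 to 1151 bases). Among genes outside the members, the median log2 fold change went from -0.09 in the shortest bin to 0.09 in the longest (6808 bases and over). WT replicate 2 had the steepest slope, as its median deviation went from 0.11 in the shortest bin to -0.13 in the longest. The GFAP-IL6 libraries sloped the other way, from -0.05, -0.02 and -0.03 to 0.06, 0.03 and 0.05 for replicates 1, 2 and 3. WT replicates 1 and 3 were nearly flat.

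The members lay below other genes of the same length. In the shortest bin, the median of the 51 members was -0.30 and that of 1485 other genes was -0.09. There, 35 of the 51 members but 13.7% of the other genes were lower at an unadjusted p under 0.05 (edgeR). In the next bin (1152 to 1682 bases) the values were -0.28 over 13 members and -0.09 over the other genes, with 9 of 13 members and 16.8% of the other genes. The other genes were not matched for level. The median level was 205 TPM over the members and 21.5 TPM over all genes tested. Measured from a smooth curve of log2 fold change on length over all genes, the median member was at -0.20, and 72 of the 77 lay below the curve.

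**Figure D5:**
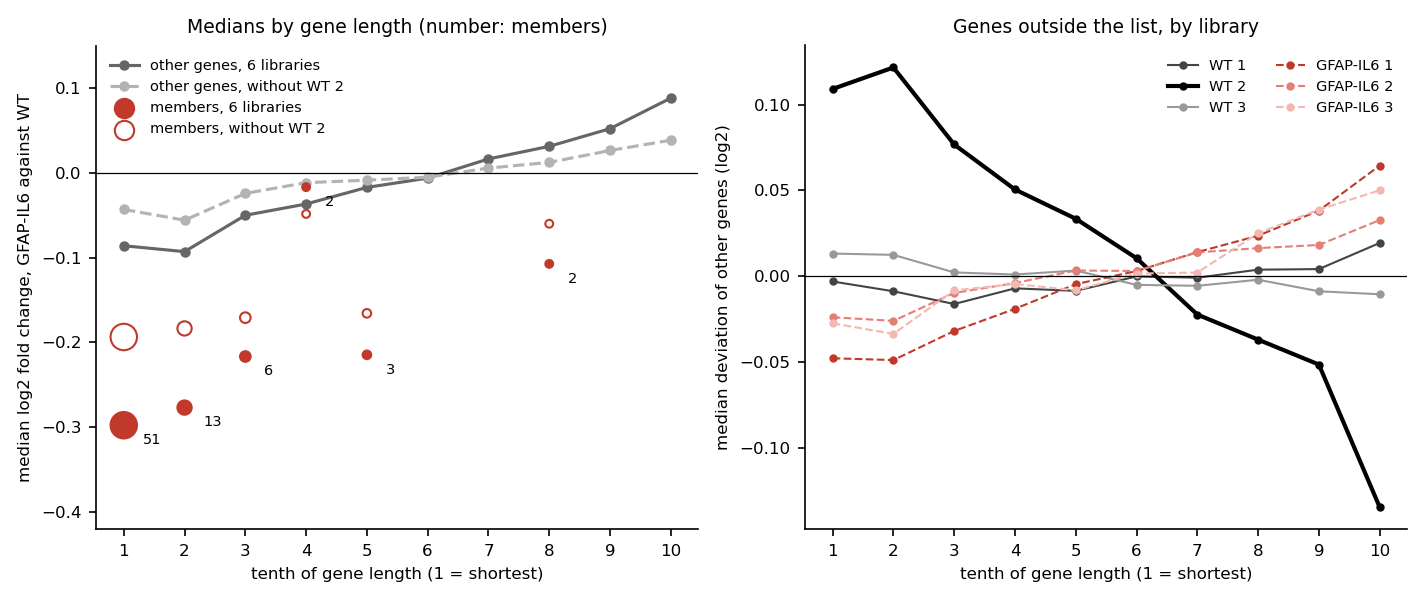
Left, the median log2 fold change of the members (red, sized by their number) and of all other genes (grey) in 10 bins of gene length, with all 6 libraries (filled) and without WT replicate 2 (open or dashed). Right, the median deviation of the other genes in each library. WT replicate 2 falls from 0.11 to -0.13 across the bins, and the members lie below the grey line in the bins that hold over 2 of them.

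Fits that allow each library its own length trend gave the same direction. With a length offset the median of the members was -0.24, with 73 of 77 below 0. At an unadjusted p under 0.05 (edgeR), 47 were lower, against 9.56% of all genes. The test called 1 lower (Ndufa12, -0.43, edgeR adjusted p = 0.0286), against 0.274% of all genes called lower. With an offset for both length and GC content the median was -0.23. The 2 calls, both lower, were Ndufa12 and Uqcr10, against 0.424% of all genes called lower. With the length offset and without WT replicate 2, a fit added after the data were seen, the median was -0.15, and 72 members were below 0. That fit called 0 members (edgeR), and the adjusted p of Ndufa12 was 0.0532. At an unadjusted p under 0.05, 23 members were lower, against 5.47% of all genes. The median thus moved from -0.28 to -0.15 when both were taken into account.

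The number of members called depended on the test far more than the direction did. Leaving out WT replicate 1 raised it to 29, of which 28 were lower and Ndufa4l2 was higher. Of all genes, 2.38% were called lower in that fit. It was 14 with DESeq2, against 0.654% of all genes called lower, and 29 with no filter on low counts, against 1.56% called lower. Of the 14 genes called with DESeq2, all 14 were among those called without WT replicate 1, as were 26 of the 29 called with no filter. Ndufa12 was called in every one of these fits. The fits share libraries, so their overlap is not independent support. Without WT replicate 1, WT replicate 2 also weighs more in the WT group.

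Other genes of the same organelle had medians below 0, with few calls. Complex II, which feeds electrons from succinate into the chain, had a median log2 fold change of -0.24 over its 4 genes. Sdhb measured 101, 119 and 99.8 CPM in WT and 84.3, 88.9 and 83.4 CPM in GFAP-IL6, with -0.32 ± 0.09 (SE; edgeR adjusted p = 0.083). The values were -0.11 ± 0.08 for Sdha, -0.19 ± 0.09 for Sdhc and -0.30 ± 0.10 for Sdhd (SE). The groups did not overlap in any of the 4, and none passed the test. The median without WT replicate 2 was -0.15.

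Several other mitochondrial lists were nearer to 0 than the members. The median was -0.21 over 15 genes of the tricarboxylic acid cycle, -0.24 over 13 markers of the mitochondrial membranes and -0.21 over 10 other subunits and carriers, all of which were below 0. None was called by edgeR, and 6, 7 and 6 were lower at an unadjusted p under 0.05, against 9.37% of all genes. The medians without WT replicate 2 were -0.14, -0.15 and -0.15. With the length and GC offset they were -0.10, -0.14 and -0.20, so both choices moved the first pair by more than 1.5 times. The median of the members moved from -0.28 to -0.18 without WT replicate 2, a similar move, and to -0.23 with that offset.

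Assembly factors build the complexes but are not part of them. Their median was -0.14 over 14 genes for complex I, -0.15 over 6 for complex III and -0.14 over 22 for complex IV, again with 0 called (edgeR). At an unadjusted p under 0.05, 1, 2 and 5 were lower, or 7.14%, 33.3% and 22.7%, so the share for complex I was below the 9.37% of all genes. These medians without WT replicate 2 were -0.09, -0.10 and -0.09, and with the length and GC offset -0.06, -0.11 and -0.08. Uqcc2, an assembly factor of complex III, had a log2 fold change of -0.38 (edgeR adjusted p = 0.0507), and it passed with that offset (-0.39, edgeR adjusted p = 0.0393) and with DESeq2 (adjusted p = 0.0402). DESeq2 also called Sdhb (adjusted p = 0.0492) and Sucla2 of the tricarboxylic acid cycle (-0.41, adjusted p = 0.0252). Uqcc2 and Sucla2 were named after their values were seen.

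Of the 13 mRNAs of the mitochondrial genome 8 could be tested, and 0 were called by edgeR or had an unadjusted p under 0.05. Their median was -0.14 with 7 of 8 below 0, but with the length and GC offset it turned to 0.06 with 1 of 8 below 0. No direction is given for them.

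Among the mitochondrial lists, the 5 genes of ATP synthase assembly and inhibition held the one other call. Usmg5, a small protein bound to the membrane part of ATP synthase, measured 78.2, 119.7 and 88.0 CPM in WT and 60.1, 65.0 and 59.05 CPM in GFAP-IL6. The groups did not overlap, and Usmg5 fell by 0.64 ± 0.13 on the log2 scale (SE; edgeR adjusted p = 0.0206). WT replicate 2 was again the highest library.

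The 89 ribosomal protein genes are close to the members in length (median 914 bases) and level (median 275 TPM, against 205 TPM over the members). Their median log2 fold change was -0.15, and 79 of the 89 were below 0, against 72 of the 77 members. At an unadjusted p under 0.05 (edgeR), 10 (11.2%) were lower, against 53 of the 77 members and 9.37% of all genes. Without WT replicate 2 their median was -0.03, with 56 below 0, and with the length offset as well it was 0.00, with 44 below 0. The members kept -0.18 and -0.15 under the same fits, with 72 below 0 in each. No test of this difference was made, since the genes of a list are not replicates.

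Shared sequence can misplace reads, because many of these genes have processed pseudogenes. Of the 80 members, 32 had no 50-base stretch in common with another annotated gene, the median share was 2.39%, and 19 had over 10%. The median log2 fold change was -0.31 over these 19 and -0.27 over the other 58 tested, and 19 and 53 were below 0. Ndufa12 shared 17.7% of its stretches with 1 other gene. On the opposite strand, annotated exons of other genes covered at most 39.0% of any member.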

How the data were processed

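RNA of frontal cortex from 6 mice was sequenced as TruSeq mRNA libraries, 3 per genotype, with groups and replicate numbers from the sample titles. The authors deposited whole-number counts per gene, made by aligning reads to mm10 with STAR 2.4 and assigning them to GENCODE genes with featureCounts. The labels name hg19 as the build, which the mouse identifiers contradict, and no strand setting is given in the sources used here. The table's gene lengths gave TPM. Positions and exons came from GENCODE M21 on GRCm38, and promoter windows from RefSeq.

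Differential expression was tested by the F-test of quasi-likelihood fits in edgeR 4.0.16 (R 4.3.3), with TMM scaling, filterByExpr, group as the only term and Benjamini-Hochberg adjustment over all genes that passed. Calls are adjusted p-values under 0.05. CPM values are TMM-scaled, and the SE of a log2 fold change was computed from its F value. Length and GC offsets were spline fits (5 degrees of freedom) per library, centred on the median gene. The length curve was a lowess fit (fraction 0.3; statsmodels 0.14.6). DESeq2 1.42.0, limma-voom (limma 3.58.1), other scalings, filters, thinning to the smallest library and leaving out each library were run as alternatives. The fits were tested on simulated counts. The counts of no pair of libraries agreed within sampling noise, with a chi-square per degree of freedom of 2.23 to 20.1 over 15 pairs.

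The members, gene lists and motifs were chosen with earlier results of these data known. Members named are those called, the 3 smallest p-values and 2 highest TPM of each complex, isoform families, c subunit genes and genes at or under 3 counts in every library of a group, with other names marked. Listed genes are named where called, and regulators and complex II genes always. Counting floors cover counting error only.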

Additional observations from a re-analysis of the deposited data

How the results depend on the processing

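The median log2 fold change of the members was below 0 in all alternatives run, between -0.15 and -0.34. Over all members, only the length offset without WT replicate 2, added after seeing the data, moved it by more than the spread between replicates (-0.153). That fit did so for complex I (-0.153), complex III (-0.152) and complex IV (-0.153) as well. For complex III, leaving out 1 library gave -0.324 to -0.169, the latter without WT replicate 2. That move, from -0.273, was also more than the spread of complex III (0.101). Members called went from 1 to 14 with DESeq2, 29 with no filter on low counts, 2 with the length and GC offset and 0 with the length offset without WT replicate 2, and from 0 to 29 when 1 library was left out. All genes called went from 439 to 1154 with no filter, and from 187 to 1061 when 1 library was left out. Leaving out 1 library turned the sign of Cox6b2 (-0.45 to 0.26) and of Cox7a1 (-0.29 to 0.56), each at a few counts.

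The replicate numbers were not taken to pair the mice. Deviations of same-numbered libraries correlated at 0.123, 0.019 and 0.0505, and those of other-numbered libraries at -0.0986 to 0.0514. The highest of the latter was WT replicate 2 with GFAP-IL6 replicate 3, and the rest of them were below 0. Whether the numbers mark a pairing was not tested, and these values do not settle it. With a replicate block, 15 members and 750 genes in all were called, 156 of them lower. The block with the length offset, also added later, gave 5 members, and a log2 fold change of 0.0211 for Cox6b2. The causes of these changes were not tested. Rare isoforms with under 30 counts per library are limited by depth.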

Other observations

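Complexes I, III and IV and ATP synthase also contain proteins encoded in the mitochondrial genome, and the counts of those mRNAs were uneven. Of the 13 such mRNAs, mt-Co2, mt-Co3, mt-Atp6, mt-Atp8 and mt-Nd4l had at most 1 count in every library, in both genotypes. The other 8 summed to between 48610 and 60630 CPM per library, above the sum of any other list counted here. The levels of these 5 mRNAs were not set beside those of the nuclear subunits, and the cause was not tested.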
